A study of Mus musculus with 2 samples.

Results

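Lef1 occupancy was examined at the genes of 4 receptor-type tyrosine phosphatases, namely Ptprc, which encodes CD45, and Ptpre, Ptpra and Ptprj. The members of the set are the Lef1 peaks that lie inside these genes or within 50 kb of them, and 2 of the 2052 peaks in the deposited list did so. One lay inside Ptpre and one inside Ptprc, and Ptpra and Ptprj had none. The 4 genes were picked with the peak list already in view, and the members were thus selected on the presence, position and score of the same peaks. Their values are given as a description, with no test.

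The peaks came from chromatin immunoprecipitation followed by sequencing (ChIP-seq), which recovers the DNA fragments bound by a protein. Conventional CD4+ T cells of wild-type C57BL/6 mice aged 8 to 10 weeks, sorted from the spleen as TCRb+, CD4+, GFP- and CD25-, gave 1 library. Lef1-deficient CD4+ T cells of C57BL/6 background, from CD4-Cre+ Lef1 fl/fl mice whose age is not given in the labels, gave the other, sorted as TCRb+ and CD4+ with no CD25 gate named. Both were precipitated with the anti-Lef1 antibody C18A7 and amplified over 18 to 21 cycles, and the second library served as the background of the peak calls. CD4-Cre is active from the thymocyte stage that expresses CD4, so Lef1 is removed before the mature cells form. The labels call both samples naive CD4 T cells, and a list of peaks cannot check that, since it does not measure expression. The source of the Lef1-deficient library is given as all CD4 T cells, so it may hold cells, CD25+ ones among them, that the wild-type sort left out.

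Receptor-type tyrosine phosphatases are membrane proteins that remove phosphate from tyrosines inside the cell. CD45 is among the most abundant surface proteins of T cells and acts on the Src family kinase Lck, from which it removes the phosphate of the inhibitory tyrosine near the tail, so that the T cell receptor can signal. CD148, the product of Ptprj, acts on the same kinases in immune cells, and the phosphatases of Ptpra and Ptpre are close relatives of one another with short outer parts. Lef1 binds DNA as a member of the TCF/LEF family, and T cells use it during development and in the naive state.

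The start sites from which the positions of the 2 peaks are counted are shown by the 250 bases before the first annotated start of each gene, from RefSeq (GRCm38.p6, the assembly of mm10), written 5′ to 3′ along the gene. Capitals mark the words searched for: the TCF/LEF core CTTTGA, the Runx word TGTGGT and the Ets word AGGAAG, on both strands. The Ptprc stretch is chr1:138175306-138175555 on the minus strand, and the Ptpre stretch is chr7:135537574-135537823 on the plus strand. The annotated body of Ptprc begins 0.451 kb upstream of its first listed start site, so the Ptprc stretch lies inside that body. Neither peak reaches these stretches. The bases under the peaks themselves were not used here.
Ptprc: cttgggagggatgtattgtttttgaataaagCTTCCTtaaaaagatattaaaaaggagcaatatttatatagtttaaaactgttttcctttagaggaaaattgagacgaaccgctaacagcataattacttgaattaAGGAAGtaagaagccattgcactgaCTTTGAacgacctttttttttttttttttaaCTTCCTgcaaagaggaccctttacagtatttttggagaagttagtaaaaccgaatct
Ptpre: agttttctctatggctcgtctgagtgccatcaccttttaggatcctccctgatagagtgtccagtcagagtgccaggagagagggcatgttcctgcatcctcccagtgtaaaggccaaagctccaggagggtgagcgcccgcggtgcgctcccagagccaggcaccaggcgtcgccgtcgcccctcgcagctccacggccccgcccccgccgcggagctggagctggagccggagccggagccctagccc

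Ptprc had the TCF/LEF core, as CTTTGA beginning 88 bases before its first start site, and 3 matches to the Ets word, of which 2 were on the reverse strand as CTTCCT. Ptpre had no match to any of the words before its first start, and 1 match to the Ets word before each of its 2 further starts. Ptpra, with 1 annotated start, had no match. Ptprj had 2 matches to the Ets word before its first start and 1 before its other start. The second start of Ptprc also had 1, which is among the 3 above because the 2 starts are 0.179 kb apart. The TCF/LEF core was thus present before the first start of 1 of the 4 genes, and it was in 13.8% of the 32851 stretches of the same length in the RefSeq table. The Ets word was in 29.5% of these stretches and the Runx word, which no member had, in 14% of them. The stretches cover every listed start of a gene and not the first alone. Counted at any listed start, 1 of the 4 genes had the TCF/LEF core and 3 had the Ets word. The stretch of Ptprc was poor in G and C (31.6%), while those of Ptpre (66%), Ptpra (68%) and Ptprj (79.2%) were above the median of all stretches (52.4%). A match describes the letters of these stretches and not a bound site. Of all listed peaks, 258 touched one of the RefSeq start windows of 300 bases, and no window of the 4 genes was among those touched.

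The Ptpre peak lay at 135542266 to 135542653 on chromosome 7 and was 388 bp wide. Its score was 16.79, on the authors' deposited scale of −log10 p. It was the ninth peak of the list in rank, with 8 peaks above it, and among the 1076 peaks that touch a protein-coding gene body 1 peak scored higher. Along the gene, which runs over 148 kb on the plus strand (135537824 to 135686294), the peak lay 4.44 to 4.83 kb downstream of the first start site, after 3.12% of the body. RefSeq gives Ptpre 2 further start sites, 55.7 and 68 kb into the gene, and the peak centre lay 51 and 63.4 kb upstream of these. The gene is known to produce a receptor form and a cytosolic form from separate start sites. The peak was thus nearest to the most upstream of the 3 start sites. No other annotated gene overlapped the peak, and the next protein-coding gene, Clrn3, lay 13.6 kb away.

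The Ptprc peak lay at 138162616 to 138162965 on chromosome 1, was 350 bp wide and had a score of 12.57. It had 14 peaks above it in the whole list, a peak on chromosome Y had the same score, and 3 peaks that touch a protein-coding gene body scored higher. The gene runs over 113 kb on the minus strand (138062859 to 138175756), with 2 annotated start sites 0.179 kb apart near its upstream end. The peak lay 12.3 to 12.7 kb downstream of the first of them, after 11.5% of the body. CD45 is made in several isoforms by splicing of exons in the front part of the transcript. Exons were not annotated in the table used, so whether either peak lies in an exon, an intron or an untranslated region was not determined. No other annotated gene overlapped the Ptprc peak, and the next protein-coding gene, Atp6v1g3, lay 111 kb away.

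Both peaks therefore lay in the front part of their genes, downstream of a start site and several kb from it, and neither lay at the start itself. They had the second and the fourth highest scores of the peaks inside protein-coding genes. Both were wider than most peaks, and peaks of high score were wider in general. The median width of the list was 79 bp (range 55 to 1141 bp) and that of the 97 peaks with a score of at least 8 was 213 bp. Of all peaks, 98.3% were narrower than that of Ptpre and 97.6% narrower than that of Ptprc. Of the 2052 peaks, 49 were at least 350 bp wide and 20 scored at least 12, and 5 did both. These limits were set on the Ptprc peak, so that both peaks had to be among the 5. The other 3 were peaks inside Dtx1 and Tcf7l2 and one on chromosome Y with no protein-coding gene within 50 kb.

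**Figure D1:**
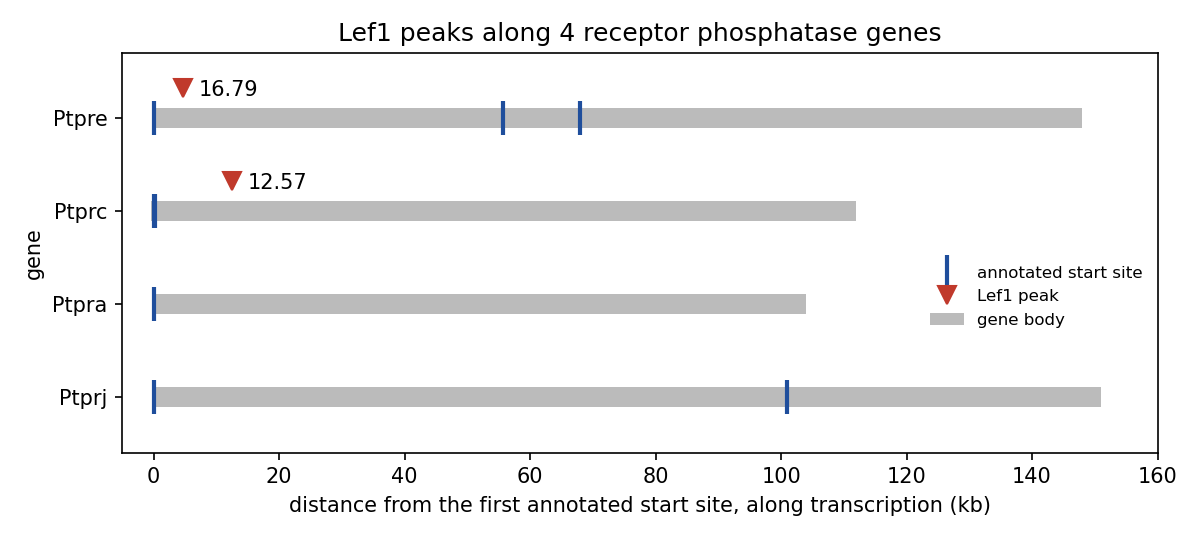
The 4 genes drawn along the direction of transcription, with the distance in kb from the first annotated start site on the horizontal axis. Grey bars are gene bodies, blue ticks are annotated start sites, and red triangles are Lef1 peaks with their scores (−log10 p). The peaks of Ptpre (16.79) and Ptprc (12.57) stand near the left ends of the bars, and Ptpra and Ptprj carry none.

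**Figure D2:**
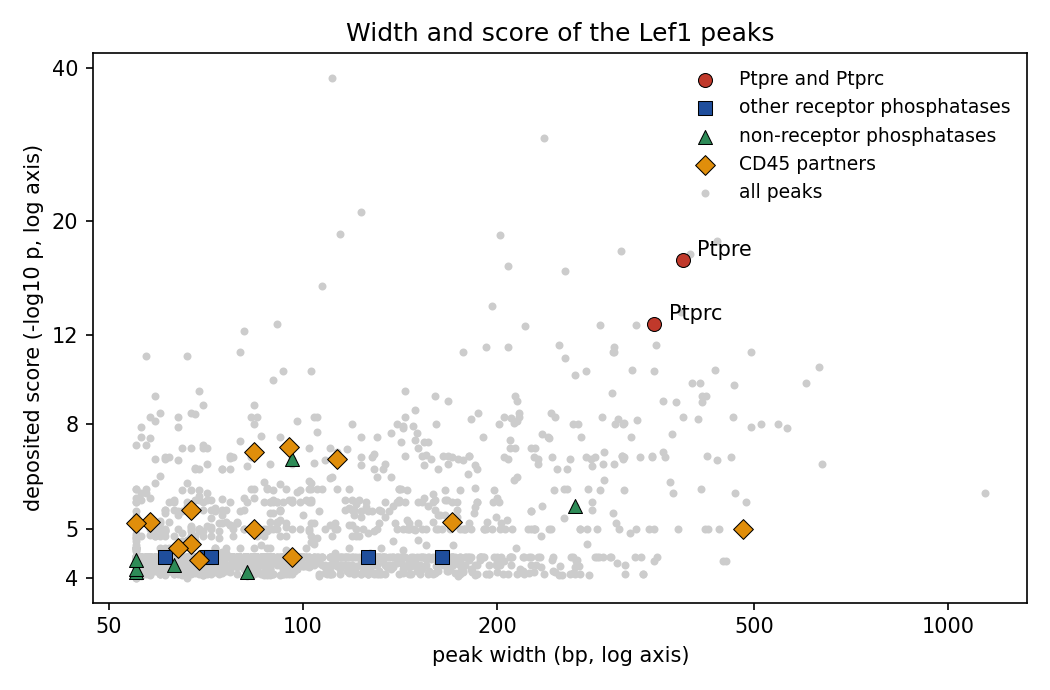
Width in bp and deposited score (−log10 p) of each of the 2052 peaks, both on log axes. Coloured symbols are the peaks within 50 kb of the listed genes and grey points are all peaks. The peaks of Ptpre (388 bp, 16.79) and Ptprc (350 bp, 12.57) stand at the upper right, above every other coloured symbol.

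The scores fall in part on regular steps. The most common score of the list, 4.40, was shared by 828 peaks (40.4%) and equals the −log10 probability of exceeding 4 in a Poisson distribution of mean 0.364. That mean was solved from the score itself with the count of 4 assumed. With it, the score of the Ptprc peak equals the −log10 probability of exceeding 10 within 2e-05. The score of the Ptpre peak is not on this series of steps, since it lies between the step for exceeding 12 (15.65) and that for exceeding 13 (17.23). Read counts and library depths are unknown, and with 1 library of each kind the scores carry no replicate error.

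The peak of Ptpre stood far from others in the list, and that of Ptprc less so. The nearest other listed peak was 2735 kb from that of Ptpre and 432 kb from that of Ptprc, against a median of 249 kb over all peaks, and 59 peaks had a larger gap than that of Ptpre and 759 a larger one than that of Ptprc. Outside the 50 kb limit, the nearest listed peaks to the gene bodies were 165 kb away for Ptprj (score 4.80), 329 kb for Ptpra (4.40), 332 kb for Ptprc (5.63) and 2731 kb for Ptpre (4.14). The lack of a peak at Ptpra and Ptprj therefore did not turn on the limit, as no listed peak lay within 100 kb of either. Their annotated bodies are of the same order of length, 104 kb for Ptpra (chromosome 2, 130450278 to 130554300) and 151 kb for Ptprj (chromosome 2, 90429756 to 90580694).

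The listed peaks are part of a longer set of calls, because the numbers in their names run up to 33876 and follow position without exception. Between the listed peaks on either side of Ptpra, 1.59 Mb apart, 15 numbers are missing, and between those on either side of Ptprj, 5.86 Mb apart, 52 are missing. The corresponding stretches around Ptpre (7.41 Mb) and Ptprc (5.63 Mb) lack 108 and 56 numbers. The positions and scores of these calls are unknown, so for Ptpra and Ptprj the absence is from the deposited list alone. The lowest score in the list was 4.01.

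A peak within 50 kb was present at 2 of the 4 genes, against 15.5% of the 21887 protein-coding genes and 20.1% of the 1439 with a body of 100 to 200 kb, the range that holds all 4. A peak of score 8 or more within 50 kb was present at 0.932% of protein-coding genes, and one of at least 12 inside the body at 6 genes, or 0.0274%. Of these 6, 5 were among the 1439 genes with a body of 100 to 200 kb, of which they make up 0.347%. Ptpre and Ptprc are themselves among the 6 and among the 5, and the limit of 12 was set on the Ptprc peak. Counted within 10 kb, within 100 kb, inside the body, above the median score of 4.40 or for the nearest gene alone, the 4 genes still had 2 with a peak, where 7.33%, 24.6%, 4.51%, 5.84% and 6.76% of all protein-coding genes had one. These shares are the background of genes picked for having such peaks, and nothing is read from the excess. In the 0.916 Mb of the 4 bodies with their flanks there were 2.18 peaks per Mb, with an exact Poisson interval (95%, counting error only) of 0.264 to 7.88. The autosomes held 0.831 per Mb, and as the genes were picked for their peaks the interval tests nothing.

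Other genes with a peak inside the body of nearly the score of Ptprc were Znrf3 (12.52), which encodes a ubiquitin ligase that removes Wnt receptors, Tmem267 (12.22) and Tcf7l2 (13.29), a gene of the TCF/LEF family. The likeness is the difference between the highest scores, which was 0.05, 0.35 and 0.72. For Ptpre the nearest was Dtx1 (18.29), which encodes a Deltex ubiquitin ligase, at a difference of 1.5, followed by Tcf7l2 at 3.49 and Znrf3 at 4.26. The peaks of Znrf3 (328 bp), Tcf7l2 (386 bp) and Dtx1 (438 bp) were also wide, and that of Tmem267 was 81 bp wide. Ptpre and Ptprc differed from these 4 genes in having 1 peak within 50 kb, where Znrf3, Tcf7l2 and Dtx1 had 2 and Tmem267 had 4. The likeness rests on 1 library.

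The remaining receptor-type tyrosine phosphatase genes had low-scoring peaks or none. Of 16 such protein-coding genes, 4 (25%) had a peak within 50 kb, namely Ptprd, Ptprk, Ptprm and Ptprt, against the 15.5% of all genes. The score of each of their 5 peaks was 4.40, the most common score of the list, and their highest scores had a median of 4.40, as had those of all 3384 genes with a peak. These 4 were among the 6 with a body of at least 500 kb, while 0 of the 10 shorter ones had a peak, and among all 227 protein-coding genes of that length 22.9% had one. Genes without a peak included Ptprb, Ptprf and Ptprg.

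Ptprk, whose loss causes a defect of helper T cells in a rat strain, had 2 peaks, 126 and 71 bp wide, at 28593978 to 28594103 and 28597151 to 28597221 on chromosome 10. They lay 3.29 and 0.176 kb before the downstream end of the gene, 519 and 522 kb from its start, and 74.3 and 71.1 kb from Themis, a gene of T cell development. The peak counted for Ptprm, a phosphatase of cell contacts, lay 36.1 kb outside the gene and 36 kb from Themis3, its nearest gene. Those of Ptprt and Ptprd lay inside these genes, that of Ptprt 442 kb from the start. The peaks of Ptprk, Ptprm and Ptprt thus lay 442 to 724 kb from the first start, against 4.64 kb at Ptpre and 12.5 kb at Ptprc. These distances are not on a like scale. The bodies of Ptprk, Ptprm and Ptprt span 523, 688 and 1140 kb, and those of Ptpre and Ptprc 148 and 113 kb. Ptprd had no start window, so its distance is not given.

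Tyrosine phosphatases of the non-receptor class, called cytosolic here, had peaks at 4 of 17 genes (23.5%, against 15.5% of all protein-coding genes), with a median highest score of 4.30. Ptpn6, which encodes the inhibitory phosphatase SHP-1, had the highest (6.84), but this peak lay inside Atn1, 11.8 kb from Ptpn6, and the other (5.53) lay 2.45 kb from Ptpn6 and 0.09 kb from Grcc10. At Ptpn22, a phosphatase that restrains T cell receptor signals together with Csk, the peak (4.35) lay inside Bcl2l15, 3.72 kb from Ptpn22. Ptpn2, which acts on JAK kinases, had a peak inside it (4.25) and another 0.956 kb outside (4.11). Both peaks of Ptpn18 lay inside it (4.17 and 4.11). Genes without a peak included Ptpn1, Ptpn3 and Ptpn4.

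Kinases, substrates and partners tied to CD45 had peaks at 9 of 19 genes (47.4%, against 15.5% of all protein-coding genes), with a median highest score of 5.16. By nearest gene alone, 7 of the 19 had one, against 6.76% of all protein-coding genes. This list, like those of the other phosphatases, was chosen with earlier results of these data known, so nothing is read from the excess. Inside the genes lay peaks of Cd247 (7.22), which encodes the zeta chain of the T cell receptor, of the kinase gene Zap70 (7.07 and 4.99) and of Csk (6.84), whose product phosphorylates the tyrosine of Lck that CD45 clears. Pag1, which encodes a membrane anchor of Csk, had a peak of 4.58, and Lgals3, which encodes a galectin that binds CD45, one of 4.40. The cytokine receptor kinase genes Jak1 (5.16 and 4.99) and Jak2 (5.12) also had peaks inside them, and the second of Jak1 was 481 bp wide.

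Lck itself had peaks outside the gene only, of which the one of 4.67 lay 1.74 kb away and was nearer to Fam167b, and the one of 4.34 lay 26.4 kb away inside Eif3i. The peak of Ptprcap (5.16), which encodes a small protein associated with CD45, lay 28.9 kb away. Cd247 had a further peak 31.6 kb outside it (5.44), nearer to Creg1. Those without a peak included the kinase genes Fyn, Src and Yes1. None of the 16 other receptor phosphatase genes, the 17 cytosolic ones or the 19 partners had a peak with a score of at least 8 within 50 kb. As 0.932% of all protein-coding genes had one, a count of 0 among so few genes is no contrast with Ptpre and Ptprc, which were picked for their peaks.

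**Figure D3:**
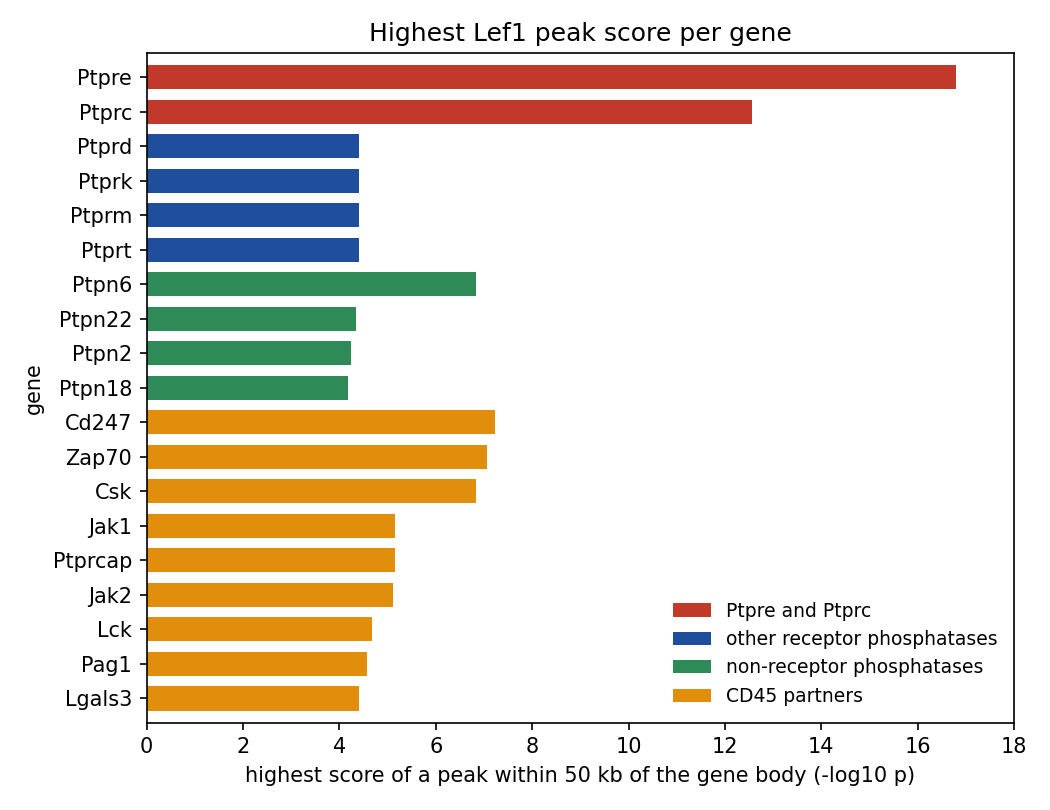
Highest score (−log10 p) of a peak within 50 kb of the gene body, for each listed gene that had a peak, in 1 library. Bars are coloured by gene list. Ptpre (16.79) and Ptprc (12.57) stand above every other bar, of which the longest is Cd247 (7.22).

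Among cell type markers, 1 of 5 CD4 T cell genes had a peak within 50 kb (Cd247), against 15.5% of all protein-coding genes. Those with none included Cd4, Cd3d and Cd3e. The 3 myeloid markers had none, and with so few genes these counts show no contrast between the cell types.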

How the data were processed

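Anti-Lef1 ChIP-seq of 1 wild-type and 1 Lef1-deficient library was analysed from the single deposited peak list. Its scores are −log10 p-values per the file headers. Bowtie2 2.3.4.1, MACS2 2.1.1, FastQC and the mm10 build are named in the submitters' processing notes, without parameters. Depth is unknown.

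Starts were raised by 1 to 1-based positions, taking the list to be in BED format. Peaks were counted for every protein-coding gene of RefSeq GRCm38.p6 whose body they touched or approached within 50 kb. All 69 entries of the gene lists matched a symbol, and Ptprv, a transcribed pseudogene, was left out. Start sites and strands came from RefSeq start windows, of which the 50 bases after the start were not searched. Genes named are all list members with a peak and up to 3 without. Members and lists were chosen with earlier results of these data known. No test was run. Overlap counting was tested on simulated peaks. Protein sequences were not used here, and the B cell markers are not reported here. Python 3.11.15, pandas 2.3.3 and scipy 1.17.1 were used.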

Additional observations from a re-analysis of the deposited data

How the results depend on the processing

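The 2 peaks at Ptpre and Ptprc, and the count of 2 of 4 genes, were the same in all 7 alternatives: distances of 10 or 100 kb, peaks above the median score (4.40), peaks with a score of at least 8, peak centres, peaks within 1 kb merged, and the nearest gene alone. This was fixed in advance and is no support. Both peaks lie inside their genes, overlap no other gene and score 16.79 and 12.57, and Ptpra and Ptprj have no listed peak within 100 kb. Of the 46 values set beside a first value, 38 stayed within 1.5 times it and 8 did not. Among the 38 are the counts for the 2 peaks and the 4 genes in all 7 alternatives, which were fixed in advance as stated. The densities that stayed at 2.18 per Mb around the 4 genes follow from the same 2 peaks. Also among them are 2 counts set beside genes of like body length, which repeat the first value and could not move. The count of 38 is therefore no measure of how stable the results are. With peaks above the median score, 0 other receptor phosphatase genes and 1 cytosolic phosphatase gene had a peak. With scores of at least 8, the counts were 0 for the other receptor phosphatases, 0 for the cytosolic ones and 0 for the CD45 partners. With the nearest gene alone, 2 cytosolic phosphatase genes had a peak. With 10 kb flanks the density around the 4 genes was 3.35 per Mb, since the stretch is shorter. The word TTTGAT, which overlaps CTTTGA by all but 1 base, was before the first start of 0 of the 4 genes and in 10.6% of all stretches. Chosen after seeing the data were the shares among genes of like body length and the search of all 300 bases of a window, which left 1 of 4 genes with the TCF/LEF core, against 16% of all windows.

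No paired analysis was possible because there is a single library of each genotype, and no replicate was left out for that reason. The depth is unknown, and a weaker site below the threshold is not in the list.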
